A study of Mus musculus with 18 samples.

Results

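The 10 genes Ccl2, Ccl7, Ccl9, Ccl20, Cxcl1, Cxcl3, Cxcl5, Cxcl9, Cxcl10 and Cxcl11 encode chemokines, and they were followed through cultured hepatocytes that had or had not met TNFalpha. They were taken as a named list, and each was read from its brightest probe set by mean over 18 arrays among those annotated to exactly 1 gene. They are 10 of 15491 genes measured in this way. Total RNA came from primary hepatocytes of C57BL/6J mice, hybridised to Affymetrix mouse arrays with 3 arrays in each of 6 groups. All sample titles begin with WtPH, read here as wild-type primary hepatocytes. The groups crossed an adenovirus (empty vector, PGC-1a1 or PGC-1a4) with a treatment (TNFalpha at 2 ng/mL, or the PBS vehicle). Infection lasted 48 hours and treatment a further 2 hours, and every virus, the empty vector included, also carried GFP in a reading frame of its own. All 18 samples therefore came from infected cells, and no uninfected group was analysed here. PGC-1alpha is a transcriptional coactivator known for its hold over mitochondrial genes; PGC-1a1 denotes its full-length protein and PGC-1a4 a truncated one made by alternative splicing. Not given in the sources used here are the promoter that drives each transgene, the age and sex of the mice, and the number of animals or cultures behind the 3 arrays of each group. P-values therefore measure spread between arrays that may be technical repeats.

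Chemokines are small secreted proteins that draw leukocytes along a gradient by binding G protein-coupled receptors. In the liver, hepatocytes exposed to TNFalpha are a known source of them: the TNF receptor activates NF-kB, which switches on chemokine genes within hours. Ccl2 and Ccl7 bind Ccr2 and attract monocytes, Ccl9 binds Ccr1, and Ccl20 binds Ccr6 on dendritic cells and some lymphocytes. Cxcl1, Cxcl3 and Cxcl5 act on Cxcr2 and attract neutrophils, and Cxcl9, Cxcl10 and Cxcl11 bind Cxcr3 on activated T cells and are known as interferon-induced genes. These are general roles of the proteins. Only RNA was measured here, so whether functional protein was made in these mice, from Cxcl11 or any other member, was not tested.

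RefSeq promoter sequence (GRCm38.p6, 250 bases before to 50 bases after the annotated start) was at hand for 6 of the 10 genes: Ccl9, Ccl20, Cxcl1, Cxcl3, Cxcl9 and Cxcl10. The NF-kB consensus, searched on both strands, matched in 5 of these 6 windows, all but that of Cxcl9, and in 4.51% of 32851 promoter windows of the same length. The interferon response motif, taken as GAAA, any 2 bases and GAAA again on either strand, matched in 1 of 6 (Cxcl10) and in 3.44% of all windows. The AP-1 letters TGANTCA, also on either strand, matched in 3 of 6 (Ccl9, Cxcl9 and Cxcl10) and in 7.81%. A match is a description of letters, not of a bound site. Stretches are shown for Cxcl10, which spanned the widest range of the 10 genes over the 18 arrays, for Cxcl1 and Cxcl3, which lie near each other and of which Cxcl3 alone was called between PGC-1a1 and vector under TNF, and for Ccl9, which had the largest difference between PGC-1a4 and vector under TNF. Each runs 5′ to 3′ to 10 bases after the start, and capitals mark the matches to the NF-kB consensus and, in Cxcl10, also to the interferon response motif.
Cxcl10, chr5:92348880-92349109, minus strand: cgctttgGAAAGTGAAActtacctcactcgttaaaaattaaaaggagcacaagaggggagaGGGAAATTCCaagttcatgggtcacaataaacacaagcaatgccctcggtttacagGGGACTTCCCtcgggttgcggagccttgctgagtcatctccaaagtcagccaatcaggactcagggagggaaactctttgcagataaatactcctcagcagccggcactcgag
Cxcl1, chr5:90891135-90891254, plus strand: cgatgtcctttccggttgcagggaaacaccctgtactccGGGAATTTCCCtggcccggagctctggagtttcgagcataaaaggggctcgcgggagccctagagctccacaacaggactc
Cxcl3, chr5:90785991-90786110, plus strand: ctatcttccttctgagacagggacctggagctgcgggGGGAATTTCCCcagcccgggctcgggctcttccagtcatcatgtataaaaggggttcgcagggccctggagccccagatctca
Ccl9, chr11:83578627-83578746, minus strand: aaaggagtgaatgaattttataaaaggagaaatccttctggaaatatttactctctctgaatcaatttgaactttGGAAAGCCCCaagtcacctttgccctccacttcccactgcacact
In Cxcl10 the interferon response motif lies 213 to 204 bases before the start and the NF-kB matches at 159 to 150 and 103 to 94. The match lies at 71 to 61 bases before the start in Cxcl1, at 73 to 63 in Cxcl3 and at 35 to 26 in Ccl9. In Ccl20, which is not printed, it lies at 80 to 71.

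Values are log2 levels from RMA, on which a difference of 1 is a 2-fold change. Levels are compared between groups for 1 gene at a time, never between genes, since probe sets differ in brightness. Differences carry their standard error (SE) from a limma fit over all 18 arrays and all genes, and a difference is called where the Benjamini-Hochberg adjusted p lies under 0.05. Arrays of 1 group correlated at 0.992 to 0.997, and no 2 columns were identical. The median over all probe sets was 7.24 to 7.32 on the 9 PBS arrays and 7.04 to 7.10 on the 9 TNF arrays, so the treatment and any difference between these sets of arrays cannot be told apart. The hepatocyte gene Alb read 15.52 to 15.70 on all arrays, and the 6 measured of 10 hepatocyte markers lay above the lower quartile of every array. Markers of other liver cells were divided. Csf1r, Stab2, Acta2 and Krt19 also lay above it on every array. Others lay below it, among them Ptprc and Tek on 18 arrays, Krt7 on 16, Vwf on 15 and C1qb on 7. Lying above this quartile thus does not by itself tell cell types apart.

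The 10 chemokines did not share a single pattern. PGC-1a4 with TNF had the highest mean of the 6 groups for 7 genes (Ccl2, Ccl7, Ccl9, Ccl20, Cxcl1, Cxcl3 and Cxcl10), PGC-1a1 with TNF for Cxcl9 and Cxcl11, and vector with PBS for Cxcl5. PGC-1a1 with PBS had the lowest mean for the 5 genes Ccl2, Ccl7, Ccl9, Ccl20 and Cxcl1, and PGC-1a4 with PBS for the other 5. Within vector PBS the arrays spread widely for some genes, so single arrays are given throughout, in the order of replicates 1, 2 and 3.

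**Figure D1:**
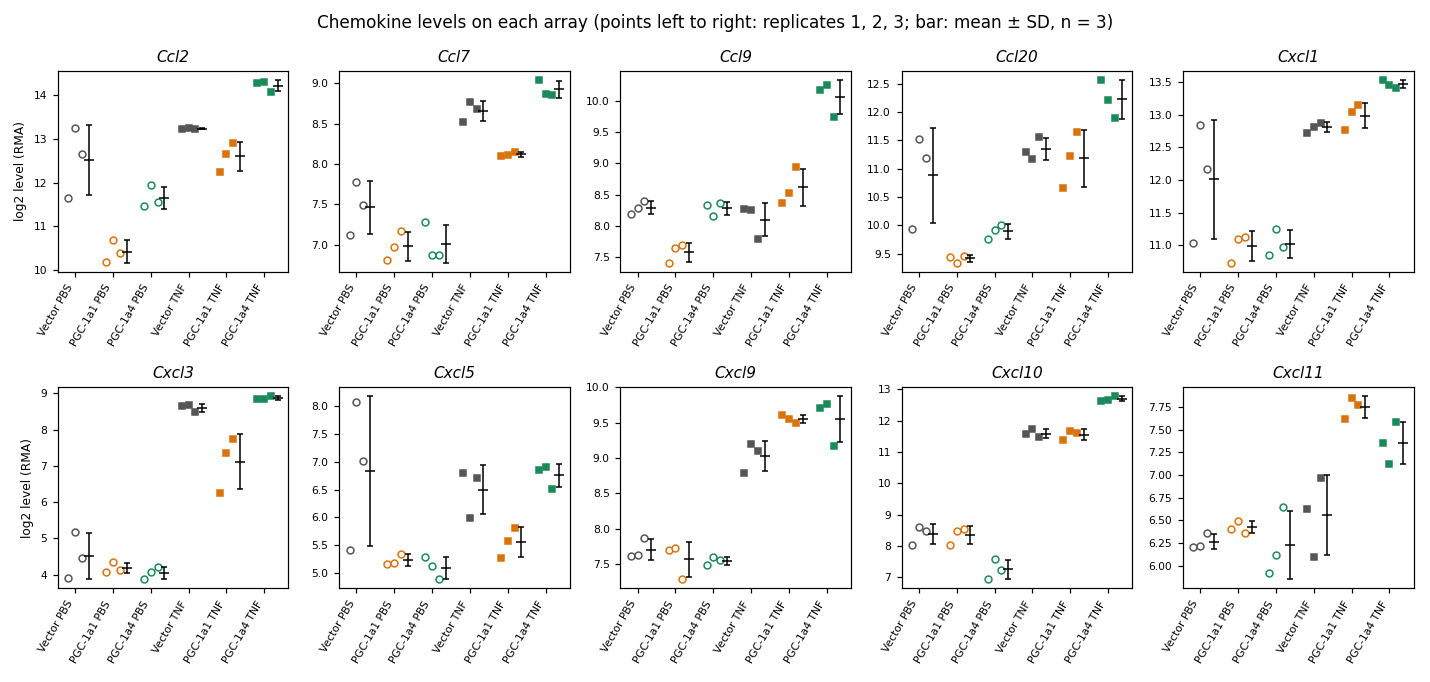
Log2 RMA level of each chemokine (vertical axis) on the 3 arrays of each of the 6 groups (horizontal axis), as points for replicates 1, 2 and 3 from left to right, with the group mean and SD beside them. The vector PBS points of Ccl2, Ccl20, Cxcl1 and Cxcl5 are spread widely, and the PGC-1a4 TNF points of Ccl2, Ccl9 and Cxcl10 lie above all others.

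Among the monocyte attractants, Ccl2 with vector read 11.65, 13.24 and 12.66 under PBS and 13.24, 13.25 and 13.23 under TNF. With PGC-1a1 it read 10.17, 10.69 and 10.39 under PBS and 12.24, 12.66 and 12.90 under TNF. With PGC-1a4 it read 11.46, 11.94 and 11.56 under PBS and 14.30, 14.31 and 14.08 under TNF. The PGC-1a4 TNF arrays were thus the highest of all and the PGC-1a1 PBS arrays the lowest, each without overlap with any other group. Between these ends, vector TNF lay above PGC-1a1 TNF without overlap, whereas PGC-1a1 TNF overlapped vector PBS and vector PBS overlapped PGC-1a4 PBS.

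Ccl7, encoded next to Ccl2 and also a Ccr2 ligand, read 7.12, 7.77 and 7.49 with vector under PBS and 8.52, 8.77 and 8.68 under TNF. PGC-1a1 gave 6.81, 6.97 and 7.17 under PBS and 8.10, 8.11 and 8.15 under TNF. PGC-1a4 gave 7.29, 6.87 and 6.88 under PBS and 9.04, 8.87 and 8.86 under TNF. The 3 TNF groups were ordered without overlap, PGC-1a4 above vector above PGC-1a1, and all lay above the PBS arrays, whose 3 groups overlapped from one to the next.

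Ccl9, the Ccr1 ligand, read 8.20, 8.28 and 8.40 with vector under PBS and 8.27, 8.24 and 7.79 under TNF. With PGC-1a1 its values were 7.40, 7.64 and 7.69 under PBS and 8.37, 8.52 and 8.95 under TNF. With PGC-1a4 they were 8.33, 8.16 and 8.36 under PBS and 10.18, 10.25 and 9.74 under TNF. PGC-1a4 TNF stood alone at the top and PGC-1a1 PBS alone at the bottom, and the means of the other 4 groups followed each other with overlapping arrays.

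The Ccr6 ligand Ccl20 read 9.93, 11.53 and 11.18 with vector under PBS and 11.29, 11.18 and 11.56 under TNF. It read 9.45, 9.34 and 9.46 with PGC-1a1 under PBS, and 10.66, 11.23 and 11.65 under TNF. With PGC-1a4 the readings were 9.75, 9.91 and 10.01 under PBS and 12.57, 12.21 and 11.89 under TNF. Vector PBS replicates 2 and 3 thus reached the levels of vector TNF, while replicate 1 lay among the PGC-1a4 PBS arrays.

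Of the neutrophil attractants, Cxcl1 with vector read 11.03, 12.84 and 12.17 under PBS and 12.73, 12.82 and 12.88 under TNF. PGC-1a1 brought 10.73, 11.10 and 11.13 under PBS and 12.77, 13.05 and 13.15 under TNF. PGC-1a4 brought 10.84, 11.25 and 10.96 under PBS and 13.54, 13.47 and 13.41 under TNF. The PGC-1a4 TNF arrays were again the highest without overlap, and vector PBS replicate 1 lay within the range of both isoforms' PBS arrays.

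Cxcl3, encoded near Cxcl1, read 3.91, 5.18 and 4.46 with vector under PBS and 8.65, 8.67 and 8.48 under TNF. The PGC-1a1 arrays were at 4.08, 4.35 and 4.13 under PBS and at 6.26, 7.37 and 7.74 under TNF. The PGC-1a4 arrays were at 3.87, 4.07 and 4.20 under PBS and at 8.84, 8.84 and 8.93 under TNF. Every PBS array lay below its own lower quartile (5.96 to 6.05), where RMA levels say little about size, and PGC-1a1 TNF replicate 1 stood below the other PGC-1a1 TNF arrays.

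Cxcl5 read 5.41, 8.07 and 7.01 with vector under PBS and 6.80, 5.99 and 6.70 under TNF. PGC-1a1 left it at 5.16, 5.19 and 5.35 under PBS and at 5.27, 5.59 and 5.80 under TNF. PGC-1a4 left it at 5.28, 5.12 and 4.89 under PBS and at 6.85, 6.90 and 6.51 under TNF. The vector PBS arrays spanned 2.67 log2 units, from below the vector TNF arrays to above them. The 6 isoform PBS arrays, vector PBS replicate 1 and 2 of 3 PGC-1a1 TNF arrays lay below the lower quartile of their arrays, so the sizes of these differences are uncertain.

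Of the Cxcr3 ligands, Cxcl10 had the clearest separation. It read 8.03, 8.62 and 8.49 with vector under PBS and 11.57, 11.73 and 11.46 under TNF. With PGC-1a1 the arrays gave 8.02, 8.49 and 8.53 under PBS and 11.37, 11.69 and 11.61 under TNF. With PGC-1a4 they gave 6.95, 7.57 and 7.22 under PBS and 12.63, 12.67 and 12.78 under TNF. PGC-1a4 held both ends of the range, lowest under PBS and highest under TNF without overlap, and vector and PGC-1a1 overlapped in both treatments.

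Cxcl9 read 7.62, 7.63 and 7.88 with vector under PBS and 8.79, 9.19 and 9.10 under TNF. For PGC-1a1 it was at 7.70, 7.72 and 7.29 under PBS and at 9.61, 9.56 and 9.50 under TNF. For PGC-1a4 it was at 7.49, 7.60 and 7.56 under PBS and at 9.70, 9.76 and 9.17 under TNF. All TNF arrays lay above all PBS arrays, PGC-1a1 TNF lay above vector TNF without overlap, and PGC-1a4 TNF replicate 3 lay among the vector TNF arrays.

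Cxcl11 read 6.21, 6.22 and 6.36 with vector under PBS and 6.63, 6.10 and 6.96 under TNF. Under PGC-1a1 it measured 6.41, 6.49 and 6.37 with PBS and 7.61, 7.85 and 7.77 with TNF. Under PGC-1a4 it measured 5.92, 6.12 and 6.64 with PBS and 7.35, 7.12 and 7.58 with TNF. Here PGC-1a1 TNF was the highest group without overlap, PGC-1a4 TNF came next without overlap, and vector TNF overlapped the PBS arrays.

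TNF against PBS asked what TNFalpha did to the chemokines with each virus. With vector 6 of 10 chemokines rose and 0 fell. Among all genes 34.7% rose and 36.6% fell. Cxcl3 rose by 4.09 ± 0.29 (SE) and Cxcl10 by 3.21 ± 0.17, which is 9.25-fold (adjusted p = 2.44e-11). Cxcl9 (1.32 ± 0.15), Ccl7 (1.20 ± 0.15), Cxcl1 (0.80 ± 0.28, adjusted p = 0.0183) and Ccl2 (0.72 ± 0.27, adjusted p = 0.0255) rose as well. Ccl20 (0.46 ± 0.30), Cxcl11 (0.30 ± 0.19), Ccl9 (-0.19 ± 0.16) and Cxcl5 (-0.34 ± 0.42) did not pass. The arrays of TNF and PBS did not overlap for 4 of 10 (Ccl7, Cxcl3, Cxcl9 and Cxcl10), against 35% of all genes with TNF above PBS in this way.

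The small differences of Ccl2 and Cxcl1 changed with the arrays included. Without vector PBS replicate 1, the lowest of its group, they were 0.29 and 0.30 and did not pass, whereas without replicate 2 they were 1.08 and 1.21. Without vector TNF replicate 2, Ccl2 kept its size (0.72) at an adjusted p of 0.0506. Without vector PBS replicate 1, Cxcl5 was lower under TNF (-1.05) and passed, and without replicate 2, Ccl20 passed at 0.78. Quantile normalization gave 0.49 for Ccl2 and 0.46 for Cxcl1, and neither passed.

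With PGC-1a1 9 of 10 chemokines rose and 0 fell, against 34.6% and 35% of all genes. Cxcl10 rose by 3.21 ± 0.17 and Cxcl3 by 2.94 ± 0.29. Ccl2 rose by 2.19 ± 0.27 (adjusted p = 1.56e-06), Cxcl1 by 2.01 ± 0.28, Cxcl9 by 1.98 ± 0.15 and Ccl20 by 1.77 ± 0.30. The smaller changes were those of Cxcl11 (1.32 ± 0.19), Ccl7 (1.14 ± 0.15) and Ccl9 (1.04 ± 0.16). Cxcl5 differed by 0.32 (95% interval -0.55 to 1.20) and did not pass. All of the 9 kept their call with any 1 array left out.

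With PGC-1a4 10 of 10 rose and 0 fell, against 37.4% and 32.8% of all genes, and in all 10 the TNF arrays lay above the PBS arrays without overlap, against 39.6% of all genes. Cxcl10 rose by 5.44 ± 0.17, or 43.5-fold (adjusted p = 1.44e-13), and Cxcl3 by 4.82 ± 0.29. Ccl2 (2.57 ± 0.27), Cxcl1 (2.45 ± 0.28) and Ccl20 (2.33 ± 0.30) rose by more than 2 log2 units. Cxcl9 rose by 1.99 ± 0.15, Ccl7 by 1.91 ± 0.15, Ccl9 by 1.78 ± 0.16, Cxcl5 by 1.65 ± 0.42 (adjusted p = 0.00184) and Cxcl11 by 1.12 ± 0.19. The median difference of the 10 genes was 0.76 for vector, 1.87 for PGC-1a1 and 2.16 for PGC-1a4, beside medians of all genes of -0.04, -0.04 and 0.02. Centring each array on its median, an alternative scaling, moved these medians of all genes to 0.18, 0.19 and 0.21, and the share of higher among all calls from 48.7%, 49.6% and 53.3% to 62.9%, 66.7% and 66.2%. It ended no chemokine call in these 3 comparisons. The vector median of the 10 genes was 0.51 under quantile normalization and 0.48 under cyclic loess, where Ccl2 (0.29) and Cxcl1 (0.36) lost their calls.

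**Figure D2:**
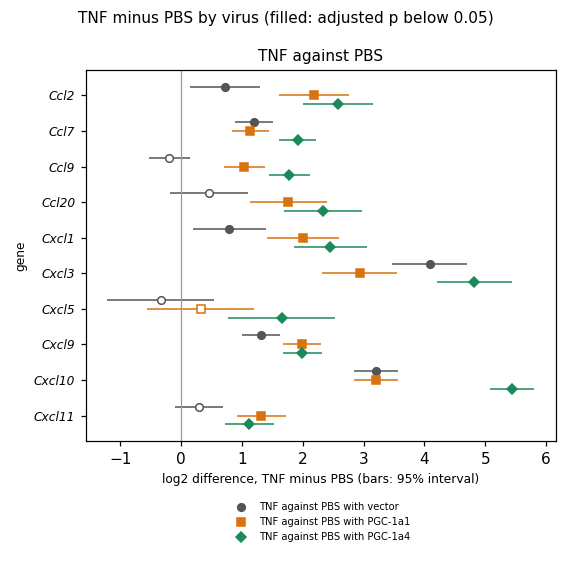
Log2 difference between TNF and PBS (horizontal axis) for each chemokine (vertical axis) with vector (circles), PGC-1a1 (squares) and PGC-1a4 (diamonds), with 95% intervals from limma and filled symbols where the adjusted p is under 0.05. Open symbols mark Ccl9, Ccl20, Cxcl5 and Cxcl11 with vector and Cxcl5 with PGC-1a1, and Cxcl10 with PGC-1a4 lies farthest to the right at 5.44.

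Without TNF, PGC-1a1 went with lower levels of 6 of 10 chemokines relative to vector, and 0 were higher. Among all genes 4.11% were lower and 7.88% higher. Ccl2 fell from 12.52 ± 0.80 (SD, n = 3) to 10.42 ± 0.26 (log2 difference -2.10 ± 0.27, adjusted p = 3.45e-05). Ccl20 (-1.47 ± 0.30, adjusted p = 0.00289) and Ccl9 (-0.71 ± 0.16, adjusted p = 0.00568) were lower as well. Cxcl5 (-1.60 ± 0.42, adjusted p = 0.0154), Cxcl1 (-1.03 ± 0.28, adjusted p = 0.0219) and Ccl7 (-0.48 ± 0.15, adjusted p = 0.0382) fell too. The Cxcr3 ligands did not pass: Cxcl9 differed by -0.13 (95% interval -0.45 to 0.18), Cxcl10 by -0.03 (-0.39 to 0.33) and Cxcl11 by 0.16 (-0.24 to 0.56). Cxcl3 differed by -0.33 ± 0.29.

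These differences rested unequally on the vector arrays. Ccl2, Ccl9 and Ccl20 passed with any 1 array left out. Without vector PBS replicate 2, Cxcl1 was at -0.62, Cxcl5 at -0.98 and Ccl7 at -0.32, and none of these passed. Without replicate 3 they were at -0.95, -1.51 and -0.47, and without PGC-1a1 PBS replicate 1 at -0.90, -1.56 and -0.39, again without passing. Ccl7 also lost its call without PGC-1a1 PBS replicate 2 (-0.47). Leaving out vector PBS replicate 1 left 6 chemokines past the threshold.

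**Figure D3:**
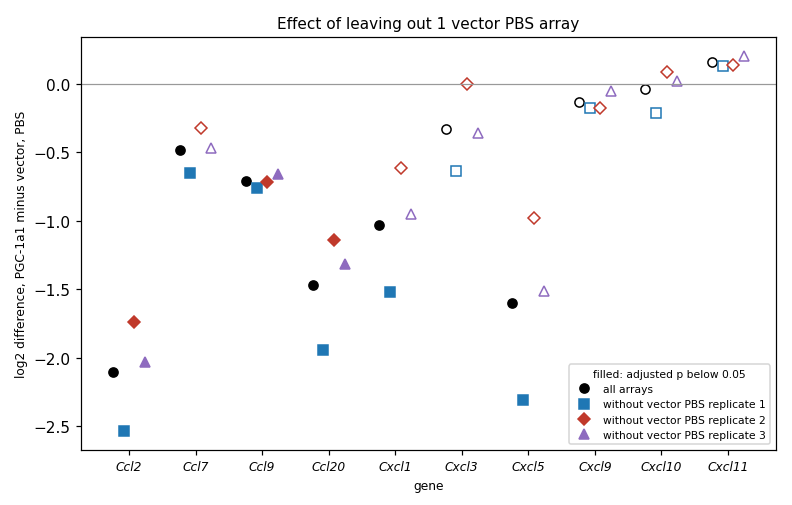
Log2 difference between PGC-1a1 and vector under PBS (vertical axis) for each chemokine (horizontal axis) from all arrays and with each vector PBS array left out in turn, filled where the adjusted p is under 0.05. Ccl2, Ccl9 and Ccl20 stay filled throughout, while Ccl7, Cxcl1 and Cxcl5 are open without replicate 2 or replicate 3.

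Under PBS the vector arrays differed among themselves more than those of any other group for 6 of 10 chemokines (Ccl2, Ccl7, Ccl20, Cxcl1, Cxcl5 and Cxcl10), against 19.3% of all genes. The SD of vector PBS was 6.36 times the median SD of the other groups for Cxcl5, 4.73 times for Cxcl1, 4.32 times for Ccl20 and 3.18 times for Ccl2. It was 0.37 times that median for Ccl9, 0.69 times for Cxcl9 and 0.36 times for Cxcl11. Replicate 1 was the lowest of the 3 vector PBS arrays for 10 of 10 chemokines, against 48.2% of all genes, and replicate 2 the highest for 7 of 10, against 44.6%. The log2 of the summed macrophage marker levels in the same arrays was 9.67, 9.73 and 9.93, and its part in this spread was not tested.

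PGC-1a4 gave 1 called difference from vector under PBS. Cxcl10 fell from 8.38 ± 0.31 to 7.25 ± 0.31 (SD, n = 3), a log2 difference of -1.13 ± 0.17 (adjusted p = 0.00554), and the groups did not overlap. Among all genes 0.129% were lower and 0.0775% higher. Without PGC-1a4 PBS replicate 1, the lowest array, the difference was -0.98 and did not pass (adjusted p = 0.0589). Estimates for all 10 chemokines lay below 0, among them Cxcl5 (-1.73 ± 0.42), Cxcl1 (-0.99 ± 0.28), Ccl20 (-0.99 ± 0.30) and Ccl2 (-0.86 ± 0.27), none of which passed with all arrays. Without vector PBS replicate 1 these 4 were at -2.44, -1.49, -1.46 and -1.30 and passed. The comparisons of PGC-1a1 and of PGC-1a4 with vector use the same 3 vector arrays, so what these arrays do enters both.

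Set against each other under PBS, with no vector array involved, the isoforms differed in 3 of 10 chemokines. Among all genes 7.08% were lower and 10.3% higher with PGC-1a1. Ccl2 (-1.24 ± 0.27, adjusted p = 0.0034) and Ccl9 (-0.70 ± 0.16, adjusted p = 0.00434) were lower with PGC-1a1, and Cxcl10 was higher (1.10 ± 0.17, adjusted p = 0.000163). Cxcl1 differed by -0.03 (95% interval -0.63 to 0.56) and Cxcl5 by 0.13 (-0.74 to 1.01). Ccl20 (-0.48) did not pass, although its groups did not overlap. In a limma fit of the compared groups alone it passed (adjusted p = 0.00192). The calls of Ccl2, Ccl9 and Cxcl10 held with any 1 array left out.

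Under TNF, 3 of 10 chemokines were higher and 2 lower with PGC-1a1 than with vector, near the shares of 20.8% and 20.5% among all genes. Cxcl11 rose from 6.56 ± 0.44 to 7.74 ± 0.12 (SD, n = 3), by 1.18 ± 0.19 (adjusted p = 6.07e-05), Cxcl9 by 0.53 ± 0.15 (adjusted p = 0.00817) and Ccl9 by 0.51 ± 0.16 (adjusted p = 0.0154). Cxcl3 fell by 1.48 ± 0.29 (adjusted p = 0.000513) and Ccl7 by 0.54 ± 0.15 (adjusted p = 0.0063). Ccl2 (-0.64 ± 0.27, adjusted p = 0.0726) and Cxcl5 (-0.94 ± 0.42, adjusted p = 0.0802) were lower on every array than vector but did not pass. In a fit of the 9 TNF arrays alone, chosen after seeing the data, both passed, while Ccl9 did not (adjusted p = 0.0750). Cxcl10 differed by -0.03 (95% interval -0.39 to 0.33), Cxcl1 by 0.18 (-0.42 to 0.78) and Ccl20 by -0.16 (-0.80 to 0.48). The call of Ccl9 was lost without vector TNF replicate 3 (0.36) or PGC-1a1 TNF replicate 3 (0.35).

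PGC-1a4 under TNF gave higher levels than vector for 6 of 10 chemokines and lower levels for 0, against 21.1% and 12.3% of all genes. Ccl9 had the largest difference of the 10, from 8.10 ± 0.27 to 10.06 ± 0.28 (SD, n = 3), which is 3.89-fold (1.96 ± 0.16, adjusted p = 1.8e-07). Cxcl10 rose by 1.10 ± 0.17 (adjusted p = 8.85e-05), Ccl2 by 0.99 ± 0.27 (adjusted p = 0.00936) and Ccl20 by 0.88 ± 0.30 (adjusted p = 0.0323). Cxcl11 rose by 0.79 ± 0.19 and Cxcl9 by 0.52 ± 0.15 (adjusted p = 0.012). Cxcl1 (0.66 ± 0.28), Ccl7 (0.27 ± 0.15), Cxcl3 (0.27 ± 0.29) and Cxcl5 (0.26 ± 0.42) did not pass, although Cxcl1 and Ccl7 did in the fit of the 9 TNF arrays alone (adjusted p of 0.0018 and 0.0489). In 8 of 10 genes the PGC-1a4 arrays lay above the vector arrays without overlap, against 26.3% of all genes. Ccl20 lost its call without vector TNF replicate 1 (0.86) or 2 (0.80) or PGC-1a4 TNF replicate 1 (0.71) or 2 (0.89), and Cxcl9 without vector TNF replicate 1 (0.40) or PGC-1a4 TNF replicate 1 (0.44) or 2 (0.41).

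**Figure D4:**
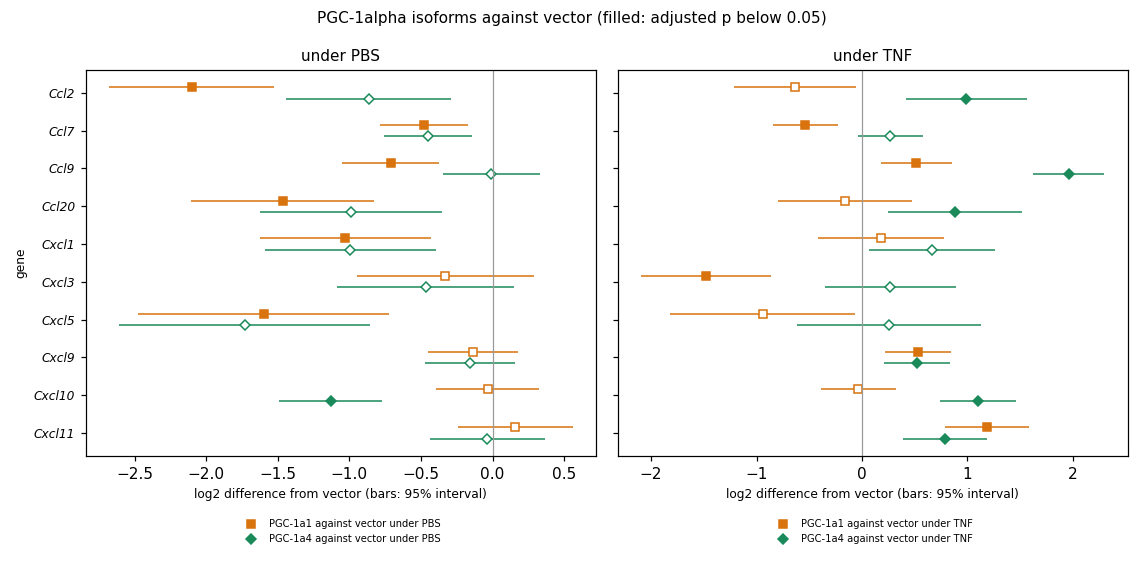
Log2 difference from vector (horizontal axis) for each chemokine (vertical axis) with PGC-1a1 (squares) and PGC-1a4 (diamonds), under PBS on the left and under TNF on the right, with 95% intervals from limma and filled symbols where the adjusted p is under 0.05. Filled symbols lie left of 0 under PBS, and under TNF the filled PGC-1a4 symbols lie right of 0 while those of PGC-1a1 lie on both sides.

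Compared directly under TNF, 7 of 10 chemokines had lower PGC-1a1 than PGC-1a4 levels and 0 had higher ones, against 21.3% and 15.2% of all genes. Cxcl3 fell by 1.75 ± 0.29, Ccl2 by 1.63 ± 0.27 (adjusted p = 0.000116), Ccl9 by 1.44 ± 0.16 (adjusted p = 1.26e-06) and Cxcl10 by 1.14 ± 0.17. Cxcl5 (-1.20 ± 0.42, adjusted p = 0.0309), Ccl20 (-1.04 ± 0.30, adjusted p = 0.0111) and Ccl7 (-0.80 ± 0.15) were lower as well. Cxcl9 differed by 0.01 (95% interval -0.31 to 0.32), Cxcl11 by 0.39 (-0.01 to 0.79) and Cxcl1 by -0.48 (-1.08 to 0.11), and none of these passed, although Cxcl1 did in the fit of the 9 TNF arrays alone (adjusted p = 0.00618). In 8 of 10 genes the PGC-1a1 arrays lay below the PGC-1a4 arrays without overlap, against 26.5% of all genes. Ccl20 lost its call without PGC-1a1 TNF replicate 1 (-0.78) or PGC-1a4 TNF replicate 1 (-0.87). Cxcl5 lost it without replicate 1 or 2 of PGC-1a1 TNF (-1.06 and -1.21) or of PGC-1a4 TNF (-1.15 and -1.13).

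The difference between the TNF responses of 2 viruses was tested as an interaction. The PGC-1a1 response was larger than that of vector for 6 of 10 chemokines and smaller for 0, against 13.4% and 12% of all genes. The PGC-1a4 response was larger than that of vector for 9 of 10 and smaller for 0, against 11.9% and 4.12%. Both comparisons contain the vector PBS arrays, and the second term of each is the vector response given above. The PGC-1a4 response of Cxcl10 exceeded that of vector by 2.23 ± 0.24 (adjusted p = 2.55e-05), made up of a lower PBS level and a higher TNF level. Cxcl3 lay the other way with PGC-1a1, its response differing from that of vector by -1.15 ± 0.41 (adjusted p = 0.0510), which narrowly missed the threshold. It passed with trended robust moderation, array weights, the replicate block and the filter on dim genes (adjusted p of 0.0416, 0.0259, 0.0274 and 0.0430), and without vector PBS replicate 2 (-1.48) or PGC-1a1 TNF replicate 2 (-1.27) or 3 (-1.46). It did not pass without any other single array, under quantile normalization, median centring or cyclic loess, or in a fit of the compared groups alone. All PBS arrays of Cxcl3 lay below the lower quartile, so the size of this difference is uncertain. For Cxcl10 the PGC-1a1 and vector responses were nearly equal (95% interval of the difference -0.51 to 0.51). The PGC-1a1 response was also set against that of PGC-1a4, a difference without vector arrays, although these arrays still entered its SE. The PGC-1a1 response was smaller for 4 of 10 chemokines (Ccl7, Ccl9, Cxcl3 and Cxcl10) and larger for 0. Of all genes 12.6% had a smaller and 7.18% a larger response. Under cyclic loess the share of higher among all calls moved from 36.2% to 52.0% here, and from 74.2% to 55.5% between PGC-1a4 and vector (58.4% under quantile normalization). For Ccl2 the responses of the isoforms differed by -0.39 ± 0.39, although its level differed under both treatments. For Cxcl5 they differed by -1.33 ± 0.59 and did not pass (adjusted p = 0.129). This difference passed in a limma fit of the compared groups alone (adjusted p = 0.00057) and with array weights (adjusted p = 0.0474). The isoform PBS arrays of Cxcl5 lay below the lower quartile, so its size is uncertain.

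Other probe sets existed for 3 of the 10 genes, and they did not always give the same call. The second probe set of Ccl9 correlated with the first at 0.94 over the 18 arrays. On it PGC-1a4 exceeded vector under TNF (1.80), and TNF exceeded PBS with vector (0.66), where the first probe set was at -0.19. Its difference between PGC-1a1 and vector under TNF (0.13) did not pass, nor did the difference of these responses (0.84, adjusted p = 0.0519, against 1.23 on the first) or that of the isoforms' responses (-0.79, adjusted p = 0.0788). That of Cxcl1 correlated at 0.78 and gave -0.36 for TNF with vector, which did not pass, where the first rose by 0.80, and 0.71 for PGC-1a4 against vector under TNF, which passed. Its TNF responses of 0.47 with PGC-1a1 and 0.91 with PGC-1a4 passed but were much smaller than the 2.01 and 2.45 of the first. Under PBS it put PGC-1a1 at -0.47 from vector (adjusted p = 0.0774), which did not pass, where the first gave -1.03. That of Cxcl11 read 4.17 to 5.13, near the bottom of the scale, and correlated at 0.66. Its differences from vector under TNF with PGC-1a1 (0.25) and PGC-1a4 (0.20) did not pass, nor did the differences of their responses from that of vector (0.22, adjusted p = 0.528, and -0.01), while TNF with vector did (0.37). The mean of both Cxcl11 probe sets put the response difference between PGC-1a1 and vector at 0.62, which passed, and that between PGC-1a4 and vector at 0.41, which did not.

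Of 28 other chemokine ligands 20 were measured. With vector TNF raised 4 and lowered 7 of them, against 34.7% and 36.6% of all genes, so the lowered count was near that share. Their median was 0.01 beside -0.04 for all genes. The 3 with the smallest p were Ccl25 (1.65), Ccl27a (1.02) and Cxcl15 (-1.19). Under PBS 0 of 20 passed in either isoform against vector by limma, with 1 and 2 at an unadjusted p under 0.05 for PGC-1a1 and PGC-1a4. Under TNF 0 were higher and 5 lower with PGC-1a1, among them the macrophage and T cell attractant Ccl3 (-1.13 ± 0.23), and 2 were higher and 3 lower with PGC-1a4, among them Cxcl16 (0.66 ± 0.14), which encodes a membrane-bound chemokine, and Cxcl12 (-0.68). These counts lay beside 20.8% higher and 20.5% lower of all genes for PGC-1a1, and 21.1% and 12.3% for PGC-1a4.

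Chemokine receptors were measured for 17 of 22 genes. With vector TNF raised 1 and lowered 10, against 34.7% and 36.6% of all genes. The median of the receptors was -0.45 beside -0.04 for all genes, and the Cxcl1 receptor gene Cxcr2 fell by 1.25. Against vector under PBS, 2 were higher and 0 lower with PGC-1a1, beside 7.88% and 4.11% of all genes. With PGC-1a4 0 passed by limma, with 1 at an unadjusted p under 0.05. Under TNF 2 were higher and 3 lower with PGC-1a1, beside 20.8% and 20.5% of all genes. With PGC-1a4 1 was higher and 5 were lower, beside 21.1% and 12.3%. The decoy receptor gene Ackr3, whose product takes up Cxcl11 and Cxcl12, was higher with PGC-1a1 than with vector under PBS (0.81 ± 0.21) and under TNF (2.43 ± 0.21, adjusted p = 4.98e-08). It was also higher with PGC-1a4 under TNF (1.00 ± 0.21). Cxcr4 was higher with PGC-1a1 under PBS (0.80 ± 0.18) and lower under TNF (-0.88 ± 0.18).

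The path from the TNF receptor to NF-kB was measured for 24 of 28 genes. TNF raised 10 and lowered 7 with vector, raised 13 and lowered 6 with PGC-1a1, and raised 18 and lowered 4 with PGC-1a4. Of all genes 34.7% rose and 36.6% fell with vector, 34.6% and 35% with PGC-1a1, and 37.4% and 32.8% with PGC-1a4. Medians of the path were 0.16, 0.35 and 0.62 in this order, beside -0.04, -0.04 and 0.02 for all genes. The ubiquitin ligase gene Birc3 rose by 1.77, 2.19 and 1.95 in the same order. Under PBS, PGC-1a1 against vector had 2 higher and 3 lower, against 7.88% and 4.11% of all genes. The NF-kB brake Tnfaip3 (-0.83 ± 0.14) and Birc2 (-0.77 ± 0.13) were lower. Nfkbia, which encodes the inhibitor of NF-kB, was higher by 2.16 on its brightest probe set, but the mean of its 4 probe sets gave 0.26 and did not pass. Under TNF 9 were higher and 1 lower with PGC-1a1 than with vector, and 12 were higher and 0 lower with PGC-1a4, against 20.8% and 20.5% of all genes for PGC-1a1 and 21.1% and 12.3% for PGC-1a4. The medians were 0.07 and 0.31, beside -0.03 and 0.01 for all genes. The NF-kB cofactor Bcl3 was among the former (1.04 ± 0.08) and Birc2 among the latter (1.22 ± 0.13).

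Interferon receptor, STAT and IRF genes, which act upstream of the Cxcr3 ligands, were measured for 16 of 19. Under PBS 0 were higher and 2 lower with PGC-1a1 than with vector, against 7.88% and 4.11% of all genes. For PGC-1a4, 0 of 16 passed by limma under PBS, with 0 at an unadjusted p under 0.05. Under TNF 3 were higher and 6 lower with PGC-1a1, against 20.8% and 20.5% of all genes. For PGC-1a4 under TNF, 6 were higher and 0 lower, against 21.1% and 12.3%. The medians under TNF were -0.20 for PGC-1a1 and 0.21 for PGC-1a4. Irf1, a transcription factor that binds interferon-response elements, had a mean of 9.97 in vector TNF, 10.09 in PGC-1a1 TNF and 11.01 in PGC-1a4 TNF. PGC-1a4 exceeded vector by 1.04 ± 0.10 (adjusted p = 6.33e-07). The kinase gene Jak2 was lower than vector with PGC-1a1 (-0.61 ± 0.11) and higher with PGC-1a4 (0.51 ± 0.11).

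Markers of other liver cells were measured too, and some moved with virus under TNF. The log2 of the summed level of 5 measured of 12 macrophage and Kupffer cell markers was 10.27 to 10.49 in vector TNF, 9.60 to 9.88 in PGC-1a1 TNF and 9.65 to 9.94 in PGC-1a4 TNF, against 9.67 to 9.93 in the PBS groups. Relative to vector under TNF, 4 of 5 were lower with PGC-1a1 and 2 of 5 with PGC-1a4, against 20.5% and 12.3% of all genes. Under PBS 0 of 5 passed by limma for either isoform, with 0 and 0 at an unadjusted p under 0.05. Within this list Ptprc, found on all leukocytes, lay below the lower quartile on all 18 arrays and C1qb on 7. Csf1r (8.21 to 9.48), Lyz2 (7.54 to 8.93) and C1qa (6.47 to 7.76) lay below it on 0 arrays. Of the measured markers of stellate cells (7 of 8) under TNF 3 were lower in PGC-1a1 and 4 in PGC-1a4 than in vector, beside these same shares (20.5% and 12.3%). Of those of neutrophils (4 of 6) under TNF 0 passed by limma for either isoform, with 1 and 0 at an unadjusted p under 0.05. The summed level of 4 of 5 cholangiocyte markers was 9.92 to 10.24 in vector TNF, 9.24 to 9.39 in PGC-1a1 TNF and 9.96 to 10.11 in PGC-1a4 TNF. It was 10.81 to 11.12 in the PBS groups. Against vector under TNF, 2 of 4 were lower and 1 higher in PGC-1a1, beside 20.5% and 20.8% of all genes. Of the 6 hepatocyte markers 3 were lower in PGC-1a1 PBS than in vector PBS, against 4.11% of all genes. Under TNF 3 were higher in PGC-1a1 and 4 in PGC-1a4 than in vector, against 20.8% and 21.1% of all genes. The summed level of these markers was 16.41 to 16.51 in vector TNF, 16.67 to 16.74 in PGC-1a1 TNF and 16.78 to 16.84 in PGC-1a4 TNF. The summed level of 7 of 8 endothelial markers was 11.05 to 11.23 in vector TNF, 10.37 to 10.59 in PGC-1a1 TNF and 10.58 to 10.65 in PGC-1a4 TNF. In the PBS groups it was 9.88 to 10.23. Relative to vector under TNF, 3 of these 7 were lower with PGC-1a1 and 2 with PGC-1a4, and 0 were higher. Among all genes 20.5% and 12.3% were lower. Each summed level leans on its brightest probe sets. Among the endothelial markers Lyve1 reached 10.26, while Tek lay below the lower quartile on 18 arrays and Vwf on 15. In RNA from a whole culture, fewer cells of a type and less RNA per cell cannot be told apart, and the part of these cells in the chemokine differences was not tested.

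Genes outside the list that followed a chemokine most closely were found by Pearson correlation over the 18 arrays, after each value was set against the mean of its treatment. Arrays of 1 group share their virus, so these values describe groups more than single arrays. Ccl2 was followed by Commd4 (0.91), Pbk (0.90) and Tpm1 (0.89). Cxcl1 was followed by Vnn3 (0.90), Elf3 (0.85) and Cd14 (0.84), and Cxcl10 by Irak2 (0.92), Suco (0.89) and Mllt11 (0.89).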

How the data were processed

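Biotin-labelled cRNA from 18 samples was hybridised to Affymetrix arrays, per the labels. The deposited log2 values were made by the authors with RMA and affy, per the submitters' processing notes. Not given in the sources used here are the versions and which arrays were normalized as 1 set. Large folds are compressed by RMA, and signal over background is not analysed here. The table was held in part: 1 of 33246 rows was incomplete and dropped. Of 33245 probe sets 25951 named 1 gene in the platform annotation, with symbols updated through RefSeq GRCm38.p6, 686 named several and 6608 none. Each of 15491 genes was read from its brightest probe set.

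A limma model (3.58.1, R 4.3.3) with a mean for each group was fitted to the 18 arrays (12 residual and 5.08 prior degrees of freedom) for 9 comparisons of 2 groups and 3 interactions, two-sided, with Benjamini-Hochberg adjustment over all genes and a threshold of 0.05. The fit was tested on simulated data. The smallest p of an exact test of 3 arrays against 3 is 0.1, so no test of single genes outside the fit was made. The 10 genes, the gene lists and the tests were chosen with earlier results of these data known. All 10 genes are named throughout. From each pathway list the names come from the 3 genes with the smallest p per comparison, and for Ccl2, Cxcl1 and Cxcl10 the 3 best correlated genes are named. Alternatives were other moderation, other scalings, array weights, subsets of groups, a replicate block, a filter on dim genes, the mean of probe sets, leaving out arrays singly and a threshold of 0.01. After seeing the data, a fit of the 9 arrays of 1 treatment was added. Same-numbered arrays of different groups correlated at -0.14 to 0.23 in their deviations, with 4 of 27 pairs over 0.1, so replicate numbers were not taken as pairs. Figures used matplotlib 3.10.9 in Python 3.11.15.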

Additional observations from a re-analysis of the deposited data

Results flagged for a closer look

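The TNF response, as log2 of TNF over PBS, differed between viruses by an interaction term for the values below (limma, adjusted p under 0.05). These are differences between responses, with SE, and the comparisons with vector share the vector arrays.

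Relative to vector, the PGC-1a1 response was larger for Ccl2 by 1.47 ± 0.39 (adjusted p = 0.00887), for Ccl9 by 1.23 ± 0.23 (adjusted p = 0.000595) and for Cxcl11 by 1.02 ± 0.27 (adjusted p = 0.00854), and these passed with any 1 array left out. On their second probe sets Ccl9 (0.84) and Cxcl11 (0.22) did not pass, and the mean of the Cxcl11 probe sets gave 0.62. It was also larger for Ccl20 (1.30 ± 0.43), Cxcl1 (1.21 ± 0.40) and Cxcl9 (0.66 ± 0.21). Each of these 3 lost its call without several single arrays: without vector PBS replicate 3, Ccl20 was at 1.15, Cxcl1 at 1.13 and Cxcl9 at 0.58. Without vector PBS replicate 2, Ccl20 was at 0.98 and Cxcl1 at 0.80. Of the 6 genes, Cxcl11 and Cxcl9 were the ones whose PBS level with PGC-1a1 was not called lower than vector, and both were called higher under TNF. Ccl9 was called lower under PBS and higher under TNF (0.51). Ccl2, Ccl20 and Cxcl1 were called lower under PBS only. Their TNF levels differed from vector by -0.64, -0.16 and 0.18 and did not pass, so a larger response here is not a higher TNF level.

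Relative to vector, the PGC-1a4 response was larger for Cxcl10 (2.23 ± 0.24), Ccl9 (1.97 ± 0.23, adjusted p = 4.17e-05), Ccl20 (1.87 ± 0.43), Ccl2 (1.85 ± 0.39) and Cxcl1 (1.66 ± 0.40), all of which passed with any 1 array left out. For Cxcl5 (1.99 ± 0.59), Cxcl11 (0.82 ± 0.27), Ccl7 (0.72 ± 0.21) and Cxcl9 (0.68 ± 0.21) the call was lost without any of several arrays, among them vector PBS replicate 3, where they were at 1.90, 0.78, 0.70 and 0.59. Without vector PBS replicate 2, Cxcl5 was at 1.37 and Ccl7 at 0.56, and neither passed.

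Relative to PGC-1a4, the PGC-1a1 response was smaller for Cxcl10 (-2.23 ± 0.24, adjusted p = 5.52e-06), Cxcl3 (-1.88 ± 0.41, adjusted p = 0.00351) and Ccl7 (-0.77 ± 0.21, adjusted p = 0.0125), which passed with any 1 array left out. For Ccl9 (-0.74 ± 0.23) the call was lost without PGC-1a1 TNF replicate 1 (-0.62) or any of 6 other arrays. Cxcl3 lay below the lower quartile on all 9 PBS arrays, so the size of its response is uncertain.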

How the results depend on the processing

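Of 120 values (10 chemokines in 12 comparisons) 72 passed the threshold, and 53 of these passed with any 1 array left out. None of the 72 reversed under any alternative run. Second probe sets taken alone were not among these runs. On that of Cxcl1, TNF with vector was at -0.36 without passing, opposite in sign to the called 0.80. Leaving out each array gave 9 to 9 chemokines past the threshold for TNF with PGC-1a1, 10 to 10 with PGC-1a4 and 5 to 7 with vector. The ranges were 3 to 6 for PGC-1a1 and 0 to 5 for PGC-1a4 against vector under PBS, 4 to 6 for each isoform against vector under TNF, and 3 to 3 (PBS) and 5 to 7 (TNF) between isoforms. For the response differences they were 3 to 7 (PGC-1a1 and vector), 5 to 9 (PGC-1a4 and vector) and 3 to 4 (between isoforms). Array weights raised the count for PGC-1a4 against vector under PBS from 1 to 6, and the cause was not tested. Quantile normalization lowered that of the response difference between isoforms from 4 to 2. At an adjusted p of 0.01 the counts were 3 for PGC-1a1 against vector under PBS, and 3, 5 and 2 for the 3 response differences, by construction. Quantile normalization ended 9 calls and gave 3, cyclic loess 7 and 2, a fit of the compared groups alone 9 and 6, trended robust moderation 7 and 1, the mean of probe sets 3 and 2, median centring 2 and 1, and the fit of the 9 arrays of 1 treatment 1 and 5. Array weights gave 8 calls and the filter on dim genes 1, and neither ended any. With the replicate block 1 call ended and 3 were gained: 5 chemokines passed for PGC-1a1 against vector under PBS and 6 under TNF, and 7 for PGC-1a4 against vector under TNF. Of 54 settings of an array against another group, 23 correlated best with their own number. Median centring made Cxcl11 pass for TNF with vector (0.51). Among calls over all genes the higher share moved from 65.7% to 53.8% (cyclic loess) or 55.2% (quantile) for PGC-1a1 against vector under PBS, from 37.5% to 69.8% (median centring) for PGC-1a4 there, and from 63.1% to 51.2% (cyclic loess) for PGC-1a4 under TNF. With 3 arrays a group, levels near the bottom of the scale (Cxcl3, Cxcl5 and Cxcl11) limit what can be said of size.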
